A study of Homo sapiens with 8 samples.

Results

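Immediate early genes are transcribed within minutes of a stimulus without prior protein synthesis, and most encode transcription factors whose mRNAs are degraded quickly. Their 3′ UTRs often carry AU-rich elements, built from the pentamer ATTTA, which are bound by proteins that promote mRNA decay. Because most of these genes are short with few introns, they contrast with the long genes on which CDK12, a kinase of the RNA polymerase II C-terminal domain, is known to be needed for full-length transcripts. The 10 genes described here were FOS, FOSB, JUN, JUNB, JUND, EGR1, IER2, IER5, MYC and ATF3, chosen by name out of 19389 annotated protein-coding genes. Every poly(A) 3′-sequencing peak that overlapped the GENCODE span of a gene or the 4 kb after its 3′ end was taken as its peak, which gave 21 of the 153624 peaks in the list.

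The libraries came from Kelly, a MYCN-amplified human neuroblastoma line, and from Kelly E9R, a line derived from it that arose under growing concentrations of an inhibitor and carries CDK12 mutated at the cysteine to which THZ531 binds. THZ531 is a covalent inhibitor of CDK12 and CDK13. Each line received 400 nM THZ531 or the solvent DMSO for 6 h, with 2 libraries per group, 4 groups and 8 libraries. The concentration is that of the labels, and the study's methods state a lower one for these lines. Peaks had been called once on the merged reads of all libraries, so that the list had 0 columns of values per library, and neither THZ531 against DMSO nor Kelly against Kelly E9R could be tested for any of these genes. Each value below is a single pooled value without a replicate, the depth per library is unknown, and a peak may stem from 1 group only.

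The peak list fitted the labelled cell type. All 10 neuroblastoma markers examined had a peak at an annotated transcript end, with summit pileups from 39 to 121, against 4 of 10 markers of other cells, with pileups from 6 to 16. The pileup is the number of reads, each extended to 100 bp, that cover the summit, and it was recovered as a whole number for 100% of peaks. The background in 10 kb around the summit was recovered with it, and the fold enrichment is the pileup plus 1 over the background per 100 bp plus 1. The highest pileup in the list was 200 and 16 peaks exceeded 100. The value 200 is also what 1 read per start position and strand would allow at an extension of 100 bp. How duplicate reads were treated is not given in the sources used here, and heights may therefore be capped, so pileups are described below as heights of peaks and not as transcript amounts. Peaks carried no strand, and the strand of the gene was used throughout.

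Of the 10 genes, 9 had at least 1 peak, beside 76.1% of all protein-coding genes and 64.4% of the 3229 of the same span as the 9 short members, 1.83 to 7.52 kb. A peak in the end window was present in 8. This window opens 200 bp upstream of any annotated transcript end and closes 600 bp downstream of it. Among all protein-coding genes the share with an end peak was 64.5%, and among those of the same span it was 55%. Exons before the end window held 4 peaks of 3 members, JUN, IER5 and ATF3, beside 41.7% of all genes and 19.9% of genes of the same span with such a peak. After the end window, 2 members had a peak within 4 kb, FOSB and JUNB, beside 22.6% and 23.9%. Introns held 4 peaks, all in ATF3, which was 1 of the 6 members with an intron in the annotation used. An intronic peak was present in 59.6% of all genes with an intron and in 13% of those of the same span. ATF3 is longer than that span. Among the 9 short members, 0 of 5 with an intron had an intronic peak, and 2 of 9 had an exon peak. JUN, JUNB, JUND and IER5 have no intron in these models. The summit pileups of the 21 peaks ranged from 5 to 56. Another gene, by its span or the 4 kb after its end, also lay at 10 of the 21 peaks. No share over all peaks stands beside this count, so it does not set the members apart.

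**Figure D1:**
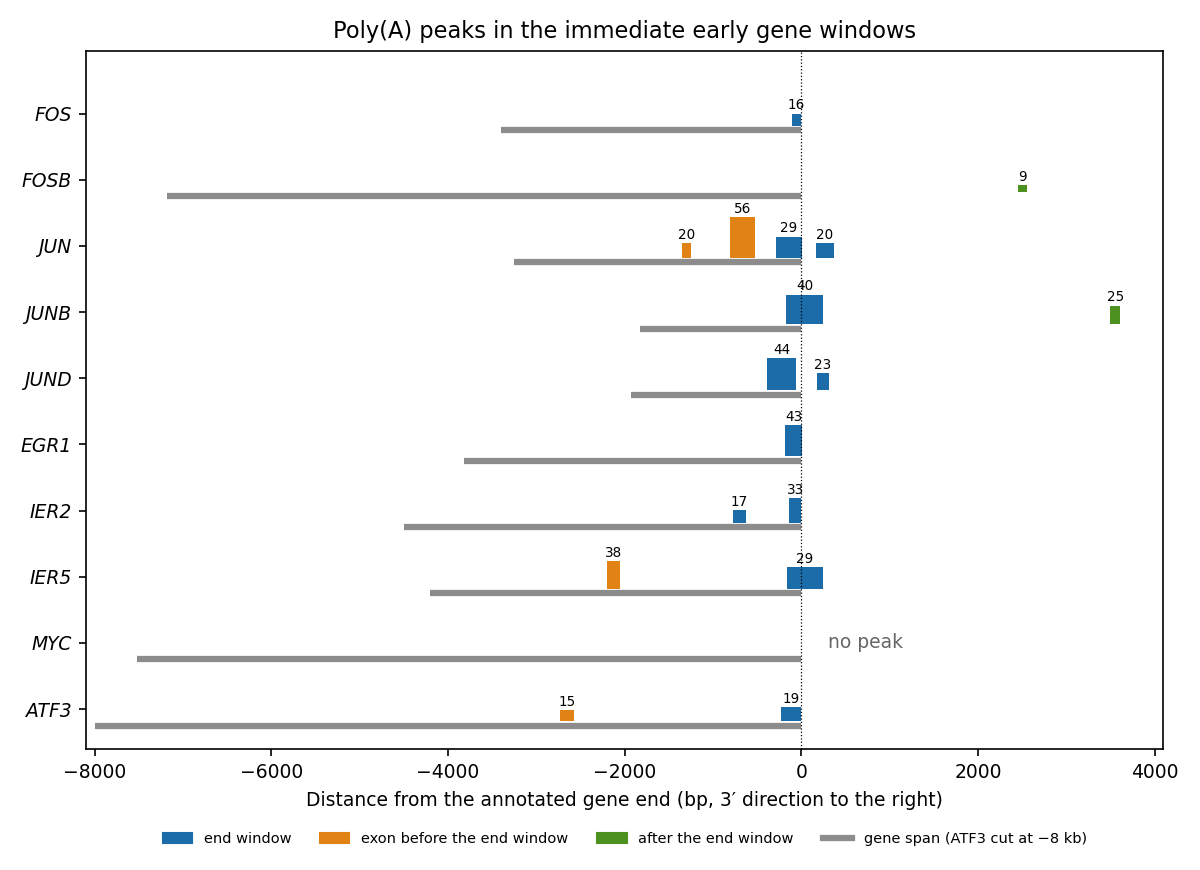
Peaks in the windows of the 10 genes, drawn by distance from the annotated gene end in bp (horizontal axis), with 1 row per gene. Each box spans a called peak, its height is proportional to the summit pileup printed above it, blue marks the end window, orange an exon before it and green the sequence after it, and grey lines show gene spans. The 4 intronic peaks of ATF3 lie to the left of the drawn range, and MYC had no peak.

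The FOS family encodes one side of the AP-1 dimer. FOS, the founding member, lies at chr14:75278826-75282230 on the forward strand and had 1 peak in its whole window, at 75282124 to 75282230 in the 3′ UTR of its last exon. The 3′ edge of this peak fell 0 bp from the annotated gene end. Its pileup was 16, the fold enrichment 9.77 and the −log10 q 13.9, with 74 reads within 10 kb. The pileup was at percentile 28.7 of the 12514 protein-coding genes with an end peak, so that FOS was the lowest of the 8 members with one. FOSB, a close relative of FOS, lies at chr19:45467995-45475179 on the forward strand and had no peak at its annotated end. An AATAAA stands 23 bp before that end in the genome. Its single peak, at 45477637 to 45477736, ended 2557 bp past the gene end, inside the span of ERCC1, a DNA repair endonuclease gene on the reverse strand. The pileup there was 9, the fold 5.81 and the −log10 q 5.73. No poly(A) signal (PAS) motif preceded its edge on the strand of FOSB, and 42 of the next 50 bases were A. Applied at the 3′ edge on the strand of FOSB, the study's rule removes such a peak. After the edge, a stretch of 25 bases was A apart from 3 mismatches at most, and no motif was present. The study sought motifs upstream of the peak, whereas here they were sought in the 100 bp before its edge. The GRCh38 sequences, 5′ to 3′ on the strand of the gene, are shown because they separate these cases. Capitals mark the PAS motif in the 30 bases before an edge or annotated end, and A runs of at least 6 in the 30 bases after the FOSB edge.
FOS, before the edge (chr14:75282201-75282230): tgtcAATAAAagcatttaagttgaatgcga
FOSB, before the annotated end (chr19:45475150-45475179): tgttgccAATAAAaagctcttaaaaacgca
FOSB, after the downstream edge (chr19:45477737-45477766): aaaattAAAAAAAAAAAAAAAAAAAAAAga

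The JUN family encodes the partners of the FOS proteins in AP-1. JUN lies at chr1:58780791-58784047 on the reverse strand, in a single exon, and had 4 peaks, the most of the 9 short members. The highest was not at the annotated end. It lay at 58781313 to 58781597, within the 3′ UTR, with its edge 522 bp before the gene end. Its pileup of 56 was the highest of the 21 peaks, and its fold was 12.1 with a −log10 q of 41.2. The peak at the annotated end, at 58780785 to 58781077, had its edge 6 bp past the end and a pileup of 29, a fold of 6.45 and a −log10 q of 13.9. An AATAAA stood 26 bp before the proximal edge and 28 bp before the distal one, counted from the first base of the motif. A further peak, at 58780424 to 58780625, ended 367 bp past the annotated end with a pileup of 20 and a fold of 4.55. It had AATATA 30 bp before its edge, and 24 of the 50 bases after the edge were A.

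The last JUN peak, at 58782044 to 58782143, ended 31 bases into the 3′ UTR, 1253 bp before the gene end. It had a pileup of 20 and a fold of 4.49, no motif on the strand of JUN, and 25 A in the next 50 bases. Thus 3 of the 4 JUN peaks had a motif and 2 of the 4 were followed by A-rich sequence. A lncRNA gene on the same strand, ENSG00000290013, ends upstream of JUN, so that the 4 kb after its end include all 4 peaks. The local background of JUN, by which the fold is divided, was 362 to 370 reads within 10 kb and includes the reads of its own peaks. Its end peak was at percentile 69.1 by pileup and 10.9 by fold among genes with an end peak. The 4 sequences on the strand of JUN follow, with the motif or the A run in capitals.
JUN, before the proximal edge (chr1:58781313-58781342): atacAATAAActattggaaagtactcccct
JUN, before the edge at the annotated end (chr1:58780785-58780814): acAATAAAtgtattcaaataccaataacag
JUN, before the edge past the end (chr1:58780424-58780453): AATATAgaataagtctcaaaagatagtaat
JUN, after the edge near the stop codon (chr1:58782014-58782043): agAAAAAAAAtaacacagagagacagactt

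JUNB lies at chr19:12791486-12793315 on the forward strand, 1.83 kb long and without an intron. Its end peak, at 12793148 to 12793555, was 408 bp wide and included the annotated end, with its edge 240 bp beyond. The pileup was 40, the fold 11.2 and the −log10 q 29.3. No motif stood within 100 bp before this distant edge, whereas AGTAAA stood 28 bp before the annotated end inside the peak. The 3′ UTR of 500 nt holds 0 AATAAA. HOOK2, a gene for a microtubule linker protein on the reverse strand, spans the same place. The second peak in the window, at 12796817 to 12796927, ended 3612 bp past the gene end with a pileup of 25 and a fold of 6.55. On the strand of JUNB it had no motif. A lncRNA gene on that strand, ENSG00000267062, spans this second peak, as does HOOK2 on the reverse strand. Read on the reverse strand, the edge of the peak lay 3 bp from the annotated end of PRDX2, which encodes a peroxide-reducing enzyme. AATAAA stood 28 bp before that edge. The sequences show the motif of each in capitals, the second on the reverse strand.
JUNB, before the annotated end (chr19:12793286-12793315): taAGTAAAaaaaaaattggttctttattaa
PRDX2, before the edge on its strand (chr19:12796817-12796846): ccAATAAAgtattagggaaaggtgtgagtc

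JUND lies at chr19:18279694-18281622 on the reverse strand and also lacks introns. The annotated end lay between its 2 peaks. The higher, at 18279756 to 18280077, had its edge 62 bp before the end, a pileup of 44, a fold of 10.0 and a −log10 q of 29.2. The lower, at 18279382 to 18279512, had its edge 312 bp past the end, a pileup of 23, a fold of 5.44 and a −log10 q of 9.53. Both had AGTAAA, 24 and 23 bp before the edge, and no motif stood within 40 bp before the annotated end itself. Neither was followed by A-rich sequence, with 0 and 14 A in the next 50 bases. The 3′ UTR of JUND also holds 0 AATAAA.
JUND, before the edge in the 3′ UTR (chr19:18279756-18279785): gttttcAGTAAAgtctcgttacgccagctc
JUND, before the edge past the end (chr19:18279382-18279411): gaaacttAGTAAActttttaaccttttggt

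EGR1, a zinc finger transcription factor, lies at chr5:138465479-138469303 on the forward strand and had 1 peak, at 138469124 to 138469315, with its edge 12 bp past the end. Its pileup was 43. The fold of 20.5 was the highest of the 21 peaks and at percentile 95.1 of genes with an end peak, and its −log10 q was 47.4. Its background of 115 reads within 10 kb was below the 362 to 370 of JUN. AATAAA stood 21 bp before the edge.
EGR1, before the edge (chr5:138469286-138469315): taaaacgaaAATAAAgtagctgcgattggg

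IER2 and IER5 are immediate early response genes, and IER5 is known to promote the activity of the heat shock factor HSF1. IER2 lies at chr19:13150411-13154911 on the forward strand. Its main peak, at 13154778 to 13154909, ended 2 bp before the gene end with a pileup of 33 and a fold of 14.8, with AATAAA 25 bp before the edge. The other, at 13154138 to 13154284, had a pileup of 17 and a fold of 7.79 and ended 627 bp before the gene end. It lay 35 bp past the end of a shorter annotated transcript, which put it in an end window. It had no motif on either strand within 100 bp and was not followed by A-rich sequence, and an antisense lncRNA, ENSG00000267598, spans it.

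IER5 lies at chr1:181088700-181092900 on the forward strand and has 1 exon. As in JUN, its proximal 3′ UTR peak was higher than its end peak. The proximal peak, at 181090705 to 181090842, had its edge 2058 bp before the gene end, a pileup of 38 and a fold of 12.7. The end peak, at 181092739 to 181093148, was 410 bp wide, included the annotated end and had its edge 248 bp past it, with a pileup of 29 and a fold of 9.90. ATTAAA stood 23 bp before the proximal edge and AGTAAA 24 bp before the distal edge. The difference between the 2 heights has no replicate check, as for JUN.
IER2, before the edge at the gene end (chr19:13154880-13154909): aggaaAATAAAaaccatttgagtaaaaaag
IER5, before the proximal edge (chr1:181090813-181090842): aacacgtATTAAAtattttgaagcaacgta
IER5, before the distal edge (chr1:181093119-181093148): tggatgAGTAAAgaaaaaagtagcccataa

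ATF3, a stress-induced transcription factor of the ATF/CREB family, was the only long member. Its annotated span, chr1:212565334-212620775 on the forward strand, covers 55.4 kb and includes distant upstream starts. The end peak, at 212620550 to 212620775, had its edge 0 bp from the gene end, a pileup of 19, a fold of 12.9 and AATAAA 29 bp before the edge. A peak of pileup 15 and fold 9.20 lay in coding exon 3 of 4, at 212618042 to 212618196, with AAGAAA 29 bp before the edge and 19 A in the next 50 bases. The 4 intronic peaks were lower, with pileups of 11, 5, 8 and 9 from the 5′ to the 3′ side. Their −log10 q values were 14.2, 4.81, 4.82 and 5.63 in the same order. The peaks of pileup 11 and 5 lay before the start of the representative transcript, and were intronic only in models with upstream starts. Of the intronic peaks of ATF3, 3 of 4 were followed by A-rich sequence on its strand, as were 78.5% of intronic peaks of all protein-coding genes. A-rich here means a run of 6 A or 7 A among 10 bases, within 50 bases of the edge. The exception, at 212571719 to 212571829, had the highest fold of the 4, 10.1, over the lowest background in the list, 0.19 per 100 bp. The peak at 212590315 shared this background. The exception had no motif on either strand. Read on the opposite strand, a run of A crosses its edge, a place that the search after the edge does not fully cover. The only intronic motif on the strand of ATF3 was AATAAA, 11 bp before the edge of the peak at 212590315 to 212590414. Capitals mark the motif before the end peak and the A run after that intronic edge.
ATF3, before the edge at the gene end (chr1:212620746-212620775): tAATAAAtattggaaccaagacatggtaaa
ATF3, after the intronic edge (chr1:212590415-212590444): ttaaaaactgcAAAAAAAAAAtgtcacata

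Across the members, the 3′ edge of an end peak fell within 20 bp of the gene end in 5 of the 8 genes with one, FOS, JUN, EGR1, IER2 and ATF3. More than 20 bp past the gene end lay 4 end peaks, those of JUN at 367 bp, JUND at 312 bp, IER5 at 248 bp and JUNB at 240 bp. The first 2 were separate peaks and the other 2 were wide peaks that included the annotated end. No share over all protein-coding genes stands beside these distances, so whether they are usual is not shown. Both peaks farther downstream were at other genes, as described for FOSB and JUNB. The 12 motifs searched on both strands, in the 100 bp before the edge, were AATAAA and its variants with 1 base replaced. The first base is replaced in TATAAA and in CATAAA and in GATAAA. The next base is replaced in ACTAAA and in AGTAAA and in ATTAAA, and the base after it in AAGAAA. Farther along, AATGAA and the set AATAGA with AATATA with AATACA complete the list.

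At least 1 of these motifs preceded 9 of the 11 member end peaks on the strand of the gene, in 7 genes, beside 85.2% of the 19450 end peaks of all protein-coding genes. AATAAA or ATTAAA preceded 5 of the 11, beside 68.8% of the 19450. A motif 20 to 30 bp before the edge was present at 9 of the 11, beside 53.8% of the 19450. This distance was chosen after the members' values were seen, so the 9 of 11 does not set the members apart. On the opposite strand 2 of 11 had a motif at that distance, beside 12.1%. A-rich sequence followed 1 of 11 end peaks, beside 19.6%. Over all 21 peaks, 61.9% had a motif and 33.3% were followed by A-rich sequence, and the shares for all genes were 58.1% and 64.2%. The mix of regions differed, with 4 intronic peaks among the 21 and 90498 among the 135952 of all genes. Within exons, A-rich sequence followed 50% of the member peaks and 52.3% of those of all genes, and within introns 75% and 78.5%. Each peak lay in the window of 1 member, and the 4 JUN peaks, like the 6 ATF3 peaks, share a gene.

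**Figure D2:**
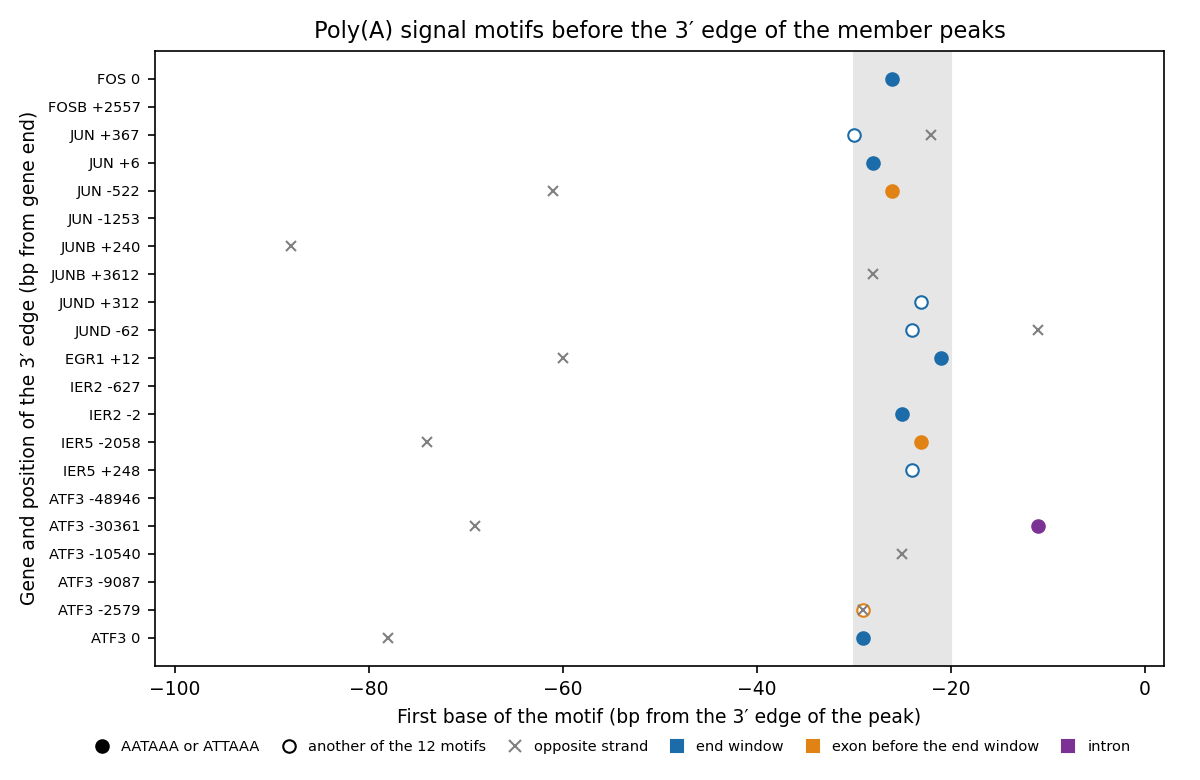
Distance in bp from the 3′ edge of each of the 21 member peaks to the first base of its PAS motif, with 1 row per peak, named by gene and by the distance of its edge from the gene end. Filled circles are AATAAA or ATTAAA and open circles other motifs on the strand of the gene, coloured by the region of the peak, and crosses are motifs on the opposite strand. Within the shaded 20 to 30 bp, a distance chosen after these values were seen, lie 9 of the 11 end peaks. Of the 4 intronic peaks, 3 have no motif on the strand of ATF3.

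The strongest end peaks of the 8 members had a median pileup of 31, from 16 in FOS to 44 in JUND. JUND, EGR1, JUNB, IER2, JUN and IER5, 6 of the 8, were above the median of all protein-coding genes with an end peak, 22, with quartiles of 14 and 31. FOS and ATF3 were below it. Genes of the same span had a median of 23, intronless genes 18 and the 82 ribosomal protein genes with an end peak, chosen as an example of stable mRNAs after the members' values were seen, 49.5. By fold enrichment the members were close to the other genes, with a median of 10.6 against 10.8.

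**Figure D3:**
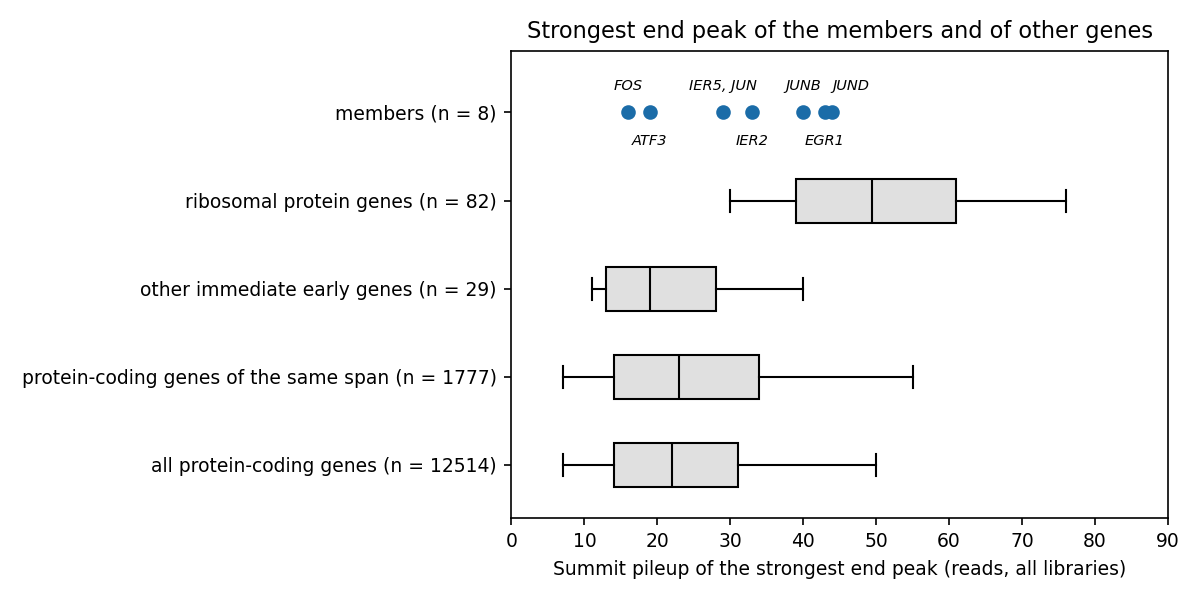
Summit pileup in reads (horizontal axis, all libraries pooled) of the strongest end peak of each member (blue points, n = 8) and of 4 other sets of genes. Boxes give the quartiles with the median as a line and whiskers the 5th and 95th percentiles. The members lie between 16 and 44, and the median of ribosomal protein genes, 49.5, is above all of them.

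An ATTTA pentamer was present in the 3′ UTR of 9 of the 10 members, IER2 being without one. The share was 69.3% among all protein-coding genes, 51.1% among those of the same span and 87.2% among the other immediate early genes. These sets were not matched for the length or GC content of the 3′ UTR. The median was 1221 nt and 44.8% GC in the members, against 562 nt and 47.5% GC in genes of the same span. IER5 held 10, MYC 6, FOS 5, FOSB, JUN and ATF3 3 each, JUNB 2, and JUND and EGR1 1 each. Per kb of 3′ UTR, FOS was highest at 6.20, followed by JUNB at 4.0, IER5 at 3.32 and MYC at 3.01. ATF3 stood at 2.46 and JUN at 2.34. FOSB at 1.38, JUND at 1.34, EGR1 at 0.818 and IER2 at 0 were below the median of all protein-coding genes. Thus 6 of the 10 members were above it. The median of the members was 2.40 per kb, against 1.59 for all protein-coding genes and 0.504 for genes of the same span. Ribosomal protein genes had 0.538 and the other immediate early genes examined 2.42. The longer element TTATTTATT was found in FOS and IER5, 2 of 10, and in 8.73% of all genes. Its share was 5.32% among genes of the same span and 28.2% among the other immediate early genes. In IER5 its 3 copies overlap within one AU-rich stretch.

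The positions of the pentamers were compared with the edges of end peaks and of proximal peaks. All 5 pentamers of FOS and all 3 of ATF3 came before the 3′ edge of the end peak. So did the 3 of JUN, 10 of IER5, 2 of JUNB and 1 of EGR1. This follows from the place of these edges, at or past the gene end. The proximal edge of IER5 leaves 956 of the 3014 nt of its 3′ UTR, with 1 of the 10 pentamers, and TTATTTATT lies behind it. The proximal edge of JUN leaves 762 of 1284 nt, with 1 of 3 pentamers. Thus the higher peak of JUN and of IER5 had its 3′ edge before most of the pentamers. The AU-rich sites of FOS and IER5 are given with TTATTTATT in capitals, the first copy for IER5.
FOS, 3′ UTR (chr14:75282060-75282089): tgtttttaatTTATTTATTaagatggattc
IER5, 3′ UTR (chr1:181092443-181092472): gtgtcttcctTTATTTATTtatttatttaa

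**Figure D4:**
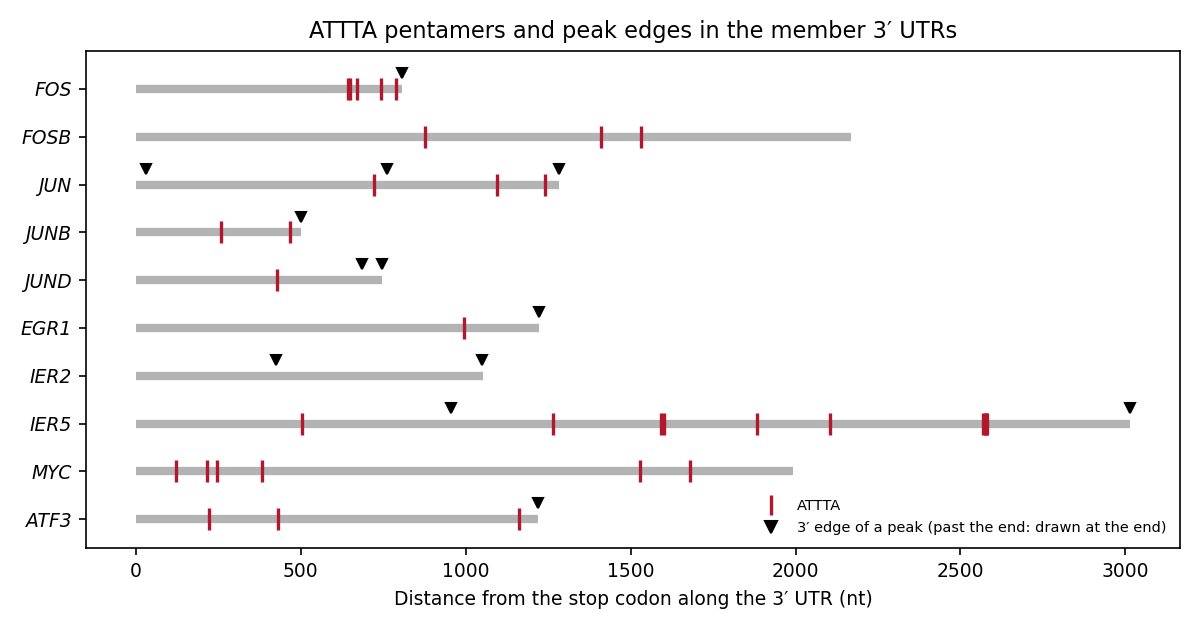
Position of each ATTTA pentamer (red ticks) along the 3′ UTR of each member in nt from the stop codon (horizontal axis), with the 3′ edges of its peaks as black triangles. Edges past the annotated end are drawn at the end. The proximal edges of JUN and IER5 stand before 2 of 3 and 9 of 10 pentamers, and FOSB and MYC have no edge in their 3′ UTRs.

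The list of 39 other immediate early genes was made by name. It also holds the transcription factor genes ELK1, ELK4, CREB1 and ATF4, whose induction was not checked. Of the 39, 29 had an end peak, with a median pileup of 19. The highest were SRF, the serum response factor, and MCL1, an anti-apoptotic BCL2 relative, at 45 each. ZFP36L2, which encodes a protein that binds AU-rich elements, stood at 40. The AP-1 genes FOSL2 and FOSL1 had end peaks of 25 and 14. EGR2 had no end peak, and its only peak lay after the end window. GADD45B, CCN2, KLF2, EGR4, KLF4 and EGR3 had 0 peaks. EGR1 was thus the only EGR gene of 4 with an end peak.

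MYC, a bHLH transcription factor that drives growth, was the only member with 0 peaks. Its span on chromosome 8 runs from 127735434 to 127742951 on the forward strand. The nearest peaks lay 3.04 kb before its start, within CASC11, with a pileup of 6, and 47.2 kb after its end, with a pileup of 5. Its 3′ UTR of 1993 nt holds 4 AATAAA, 1 of them 22 bp before the annotated end. MYCN, the related gene amplified in this line, had an end peak with a pileup of 96. The fold of that peak was 5.18, with 1771 reads within 10 kb. The lowest pileup in the whole list was 3, and without values per library a site below the caller's threshold cannot be told apart from one that was not used.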

How the data were processed

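Poly(A) 3′-sequencing (QuantSeq 3′ REV, DNase-treated RNA) reads start at the poly(A) junction. The authors trimmed reads with BBDuk, mapped them with STAR 2.5.1b to GRCh38 with ERCC spike-ins, merged all samples and called peaks with MACS2 2.1.1 (reads extended to 100 bp). The deposited list holds 1 fold enrichment, which is a ratio, 1 −log10 p, 1 −log10 q and 1 score per peak, with 0 columns per library. The duplicate handling, genome size and q threshold are not given in the sources used here. Pileup and background were recovered from MACS2's formulas: a whole pileup met the deposited p (within 0.001) in 100% of peaks, and 99.9% of backgrounds above the lowest were whole reads per 10 kb (within 0.01). This step was tested on simulated data.

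Peaks were placed with GENCODE release 44 (basic models, no readthrough transcripts), an end window of 200 bp before to 600 bp after any annotated end, then exon, intron and downstream. Python 3.11.15, numpy 2.4.6, pandas 2.3.3 and scipy 1.17.1 were used. No test was run, since libraries were pooled, and counts cover no variation between replicates. A test of THZ531 had been planned for counts per library. The genes named are the members, genes at their peaks and a list of 39 other immediate early genes; MYCN is a listed marker. Members and lists were chosen with earlier results of these data known.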

Additional observations from a re-analysis of the deposited data

How the results depend on the processing

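Of 59 alternatives, 47 left the result within its range of the reported value. For counts this range was wide, a ratio of up to 1.5. Thus 14 peaks in place of 21, at a −log10 q of at least 10, was within it. Intronic peaks were counted by gene, so their fall from 4 to 1 at that cut did not register. The 2 genes with a peak after the end window became 1 at a −log10 q of at least 10, 1 after removal of peaks at A stretches without a motif, 0 within 2 kb of the gene end, 4 with an end window of 100 bp on each side and 0 without peaks at other genes. The share of peaks followed by A-rich sequence, 33.3%, became 7.14% at a −log10 q of at least 10 and 4.76% when 25 A were required. The share with a motif, 61.9%, became 38.1% with AATAAA and ATTAAA only. The median density became 0 per kb when TTATTTATT replaced ATTTA. Alternatives chosen after seeing the data were to leave out peaks at which another gene lies, which left 11 of 21 peaks and end peaks in 4 of 8 genes, and to leave out ATF3, which left 0 genes with an intronic peak. No paired analysis was possible because the list pools all libraries, and for the same reason no library could be left out. The cause of these shifts was not tested.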
